A study of Rattus norvegicus with 20 samples.

Results

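The neurotrophin genes Bdnf and Ntf3, the Trk receptor genes Ntrk2 and Ntrk3, the p75 receptor gene Ngfr and the sortilin gene Sort1 were followed through postnatal development in rat globular bushy cells. Every probe set that the platform annotation gives to exactly 1 of these symbols was taken, which made 6 genes and 12 probe sets of 14217 genes and 20826 probe sets with a single gene. The cells were from Sprague Dawley rats. Cholera toxin B, a retrograde tracer, had been injected into the medial nucleus of the trapezoid body on the other side of the brain, the target of the bushy cell axons, 24 h before death. From each animal 200 labelled cells were cut out of the ventral cochlear nucleus by laser microdissection, so that each array holds a pool of cells of 1 animal, and their RNA was amplified in 2 linear rounds. The ages were postnatal day 3 (P3, 6 animals, the labels' stage just after the calyx of Held has formed), day 8 (P8, 9 animals, a juvenile stage) and day 21 (P21, 5 animals, the mature synapse), and animals of all ages carried the tracer.

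Neurotrophins are secreted growth factors made as longer precursors that proteases cut to the mature form. Brain-derived neurotrophic factor (BDNF) acts mainly through the tyrosine kinase TrkB, the product of Ntrk2, and neurotrophin 3 acts mainly through TrkC, the product of Ntrk3; the p75 receptor binds all of them and, together with sortilin, their precursors. In the auditory system BDNF and neurotrophin 3 are known from the inner ear, where they keep spiral ganglion neurons alive, and TrkB and TrkC are found on neurons of the cochlear nucleus. TrkB is made with or without its kinase domain, and astrocytes are known to make mainly the form without it.

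Start-site sequence was available for 3 of the 6 genes, in 10 windows of 250 bases before to 50 bases after an annotated start (RefSeq, GRCr8). The Sort1 window is shown because Sort1 was the member called higher at P21, and 1 of the 6 Bdnf windows is shown because it alone held a match to the core of the cyclic AMP response element (CRE) among these windows. The motifs searched on both strands were TGACG (CRE core), TGACGTCA (the full CRE, which contains the core), GGGCGG (GC box) and CCAAT. Capitals mark the matches, written as they stand on the gene's strand, so that a match on the other strand reads as its reverse complement. The Sort1 window is chr2:198612245-198612544 and the Bdnf window chr3:116637608-116637907, both on the plus strand of GRCr8.
Sort1: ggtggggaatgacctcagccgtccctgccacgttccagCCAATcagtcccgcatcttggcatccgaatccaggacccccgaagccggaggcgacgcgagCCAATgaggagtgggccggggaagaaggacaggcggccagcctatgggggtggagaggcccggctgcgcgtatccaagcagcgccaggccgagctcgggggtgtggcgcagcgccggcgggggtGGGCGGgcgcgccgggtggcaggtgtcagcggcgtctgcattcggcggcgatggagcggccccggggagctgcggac
Bdnf: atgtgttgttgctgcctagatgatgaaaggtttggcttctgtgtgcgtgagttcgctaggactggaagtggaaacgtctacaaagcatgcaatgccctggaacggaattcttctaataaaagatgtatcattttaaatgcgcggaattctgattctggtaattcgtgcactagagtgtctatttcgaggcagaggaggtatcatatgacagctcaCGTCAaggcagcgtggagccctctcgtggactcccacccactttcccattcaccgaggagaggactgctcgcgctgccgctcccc
The Sort1 window held 1 GC box and 2 CCAAT boxes. The Bdnf window held 1 CRE core and no full CRE. Of 33469 windows of this length in the same table, 21.2% held the CRE core, 1.83% the full CRE, 33.1% a GC box and 37.5% a CCAAT box, so that each match is a common feature and a description only.

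The deposited values are linear intensities, which were set on the scale log2(intensity + 1), called the log2 level here. The arrays of P8 replicates 5 to 9 differed from the 15 others in their controls: the 18 bacterial spike-in control probe sets averaged a log2 level of 13.02 ± 0.40 (SD, n = 5), against 8.55 ± 0.23 on the other arrays (SD, n = 15), and their median intensity over all probe sets was 64.1 to 70.8, against 32.6 to 42.9. The comparisons therefore use P3 (n = 6), P8 replicates 1 to 4 (n = 4) and P21 (n = 5), and values of P8 replicates 5 to 9 are given apart. Of 12 measured genes on a list of bushy cell and glutamatergic neuron markers, 11 averaged above log2 4 in the P3 group and 12 in each of the later groups. Their summed intensity was 6648 to 7512 at P3, 11770 to 16630 at P8 and 16300 to 25560 at P21. Of 11 measured oligodendrocyte markers, 6 averaged above log2 4 at P3 and all 11 at P8 and at P21. Of 8 microglia markers, 7 averaged above log2 4 at P3, 5 at P8 and 5 at P21, with a summed intensity of 205.5 to 335.7 at P3, 153.7 to 271.4 at P8 and 206.6 to 272.3 at P21. Of 7 pericyte and fibroblast markers these numbers were 4, 5 and 5, and of 4 measured inhibitory neuron markers 2 at every age. On each of these lists 1 marker was at or below log2 4 on all 15 arrays: Itgam of microglia, Pdgfrb of pericytes and Slc6a5 of glycinergic neurons. In pooled cells, fewer cells of a type and less RNA per cell cannot be told apart.

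The clearest age differences among the members were in Ntrk2 and Sort1. Of the 12 probe sets, 9 passed the filter (above log2 4 on at least 5 of the 15 arrays), and Ntf3 and 2 of the 5 Ntrk2 probe sets did not. Between P21 and P3, limma called 1 member probe set higher (Sort1) and 3 lower (2 of Ntrk2 and that of Ngfr) at a Benjamini-Hochberg adjusted p under 0.05, and 5 of 9 were not called. Over all 15647 probe sets tested 39.1% were called in this comparison, 20.1% higher and 19.0% lower at P21, so that the members' share lies near the background. The groups did not overlap for 4 of the 9 members, against 28.7% of all probe sets. Between P8 and P3, 1 rose and 1 fell, both of Ntrk2, against 15.6% of all probe sets called, 7.81% higher and 7.75% lower. Between P21 and P8 only the brighter Sort1 probe set was called, a rise, against 16.7% called, 8.31% higher and 8.42% lower. In these comparisons the groups of 1 member each did not overlap, against 14.0% and 14.1% of all probe sets. The median difference of the 9 members was 0.00 (P8 vs P3), −0.43 (P21 vs P8) and −0.16 (P21 vs P3), beside −0.02, 0.05 and 0.02 over all tested probe sets. The 3 comparisons share arrays and are not independent of each other.

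**Figure D1:**
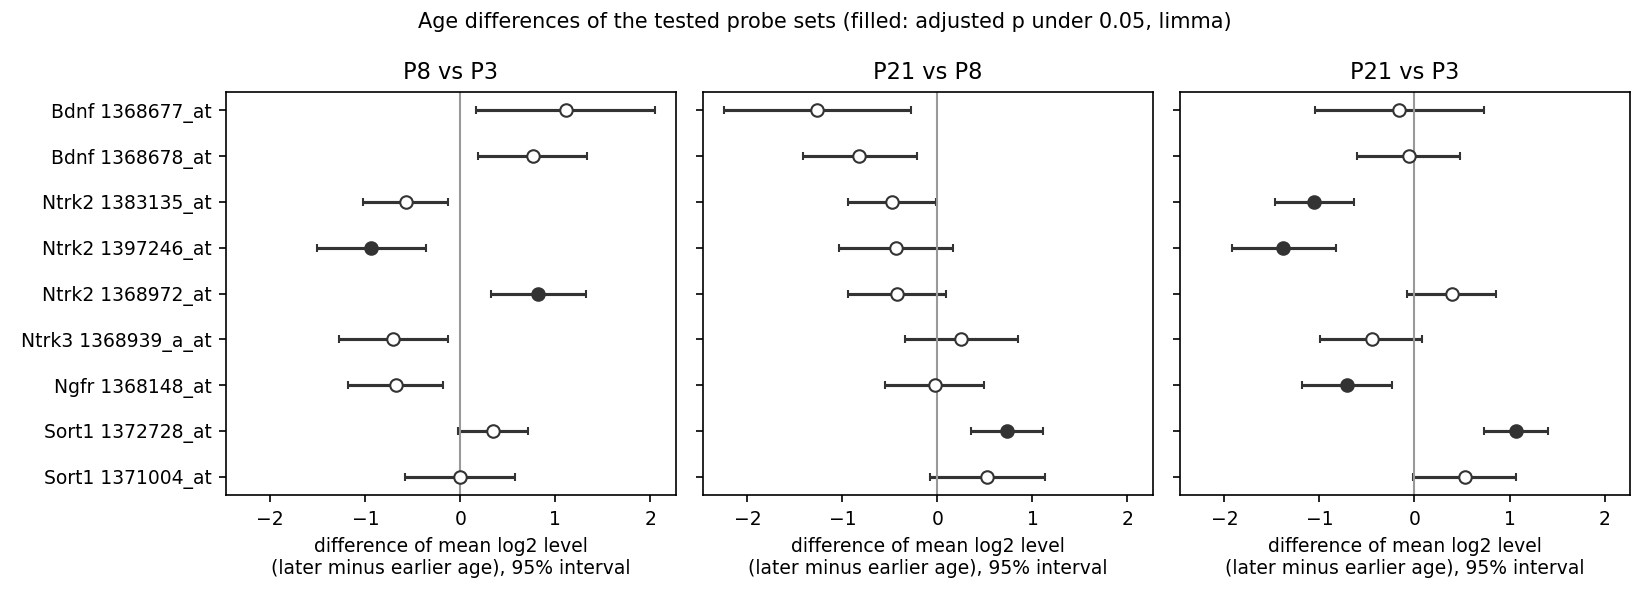
Differences of mean log2 level (x axis, later minus earlier age, log2 units) of the 9 tested member probe sets (y axis) for P8 vs P3, P21 vs P8 and P21 vs P3. Points are limma estimates with 95% intervals, filled where the adjusted p is under 0.05; the filled points are 2 Ntrk2 probe sets at P8 vs P3, 1 of Sort1 at P21 vs P8, and 2 of Ntrk2, Ngfr and Sort1 at P21 vs P3.

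Among the ligands, Bdnf is read by probe sets 1368677_at and 1368678_at. At P3 the log2 level of 1368677_at ran from 4.18 over a median of 4.63 to 5.20, at P8 it was 6.26, 6.67, 5.53 and 4.52, and at P21 5.86, 3.62, 4.79, 3.64 and 4.47. P8 replicate 4 lay within the P3 range and the other 3 P8 arrays above it, and P21 replicates 1 and 3 lay within the P8 range. The mean was 5.74 ± 0.94 at P8 and 4.64 ± 0.37 at P3 (SD, n = 4 and 6), a difference of 1.11 ± 0.44 (SE; 95% interval 0.16 to 2.05; adjusted p = 0.103, limma). At P21 it was 4.48 ± 0.93 (SD, n = 5), which differed from P8 by −1.27 ± 0.46 (SE; 95% interval −2.25 to −0.28; adjusted p = 0.0734) and from P3 by −0.16 ± 0.42 (adjusted p = 0.791). The P8 maximum of this probe set therefore did not pass the threshold on either side.

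The dimmer Bdnf probe set, 1368678_at, followed the same order of ages at levels close to the filter. It ran from 3.88 over a median of 4.07 to 4.43 at P3, was 5.09, 4.78, 5.22 and 4.41 at P8, and 2.94, 4.39, 4.29, 4.46 and 4.20 at P21. P8 replicate 4 again lay within the range of the other ages and the remaining 3 P8 arrays lay above it. The difference was 0.76 ± 0.27 for P8 vs P3 (adjusted p = 0.0687) and −0.82 ± 0.28 for P21 vs P8 (adjusted p = 0.0573, limma). With the log2 values of both probe sets averaged, these differences were 0.93 (adjusted p = 0.0145) and −1.04 (adjusted p = 0.00768), both past the threshold. Without P8 replicate 4, 1368677_at was called at P8 vs P3 (1.52, adjusted p = 0.0290) and P21 vs P8 (−1.68, adjusted p = 0.0170), and so was 1368678_at (0.91, adjusted p = 0.0447, and −0.97, adjusted p = 0.0353). Without P21 replicate 1, the call was gained by 1368677_at for P21 vs P8 (−1.61, adjusted p = 0.0173) and by 1368678_at for P8 vs P3 (0.76, adjusted p = 0.0118). Without P21 replicate 4, 1368678_at was called for P21 vs P8 (−0.92, adjusted p = 0.0477). Other omissions raised the adjusted p. For 1368677_at without P8 replicate 2, the P8 vs P3 difference was 0.80 (adjusted p = 0.265). Its P21 vs P8 difference was then −0.96 (adjusted p = 0.203). For 1368678_at without P8 replicate 3, the P8 vs P3 difference was 0.64 (adjusted p = 0.163). Its adjusted p at P21 vs P8 was then 0.141 (limma). With all 20 arrays in the fit 1368678_at was called in both, at 1.46 for P8 vs P3 (adjusted p = 0.00827) and −1.52 for P21 vs P8 (adjusted p = 0.00701). In that fit 1368677_at was called in neither (adjusted p = 0.225 and 0.179). The fit over all 20 arrays cannot separate age from the array set, and no age difference of Bdnf is read from it. With only P8 and P3 in the fit 1368678_at was called at P8 vs P3 (0.76, adjusted p = 0.0284). With only P21 and P8 in the fit the adjusted p for P21 vs P8 was 0.185 for 1368677_at and 0.158 for 1368678_at. With the replicate number as a block neither probe set was called. On P8 replicates 5 to 9 the probe set 1368678_at stood at 5.56 to 6.60, above all 15 other arrays, while 1368677_at spread from 3.31 to 6.65.

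Ntf3, which encodes neurotrophin 3, was dim, with a lower mean at each later age. Its probe set 1387267_at had a log2 level of 3.42 to 5.13 at P3 with a median of 3.85, of 3.19, 4.22, 3.38 and 1.58 at P8, and of 1.63, 2.49, 1.72, 1.72 and 2.38 at P21. Every P21 array lay below every P3 array, and the P8 arrays overlapped both. It exceeded log2 4 on 3 arrays at P3, on 1 at P8 and on 0 at P21, and so was left out of the test. The means were 4.07 ± 0.64 at P3, 3.09 ± 1.10 at P8 and 1.99 ± 0.41 at P21 (SD, n = 6, 4 and 5), a difference of −2.08 for P21 vs P3. With no filter on dim probe sets limma gave this difference an adjusted p of 0.00137, and the steps P8 vs P3 and P21 vs P8 adjusted p of 0.173 and 0.139. Replicates 5 to 9 of P8 lay at 3.51 to 5.73, with 4 arrays above log2 4, and Ntf3 passed the filter only with them included. In that fit the P21 vs P8 difference was −1.95 (adjusted p = 0.0147, limma). These arrays were set apart for their controls and had median intensities of 64.1 to 70.8, against 32.6 to 42.9 on the others. That fit therefore cannot separate age from the array set, and no age difference is read from it.

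**Figure D2:**
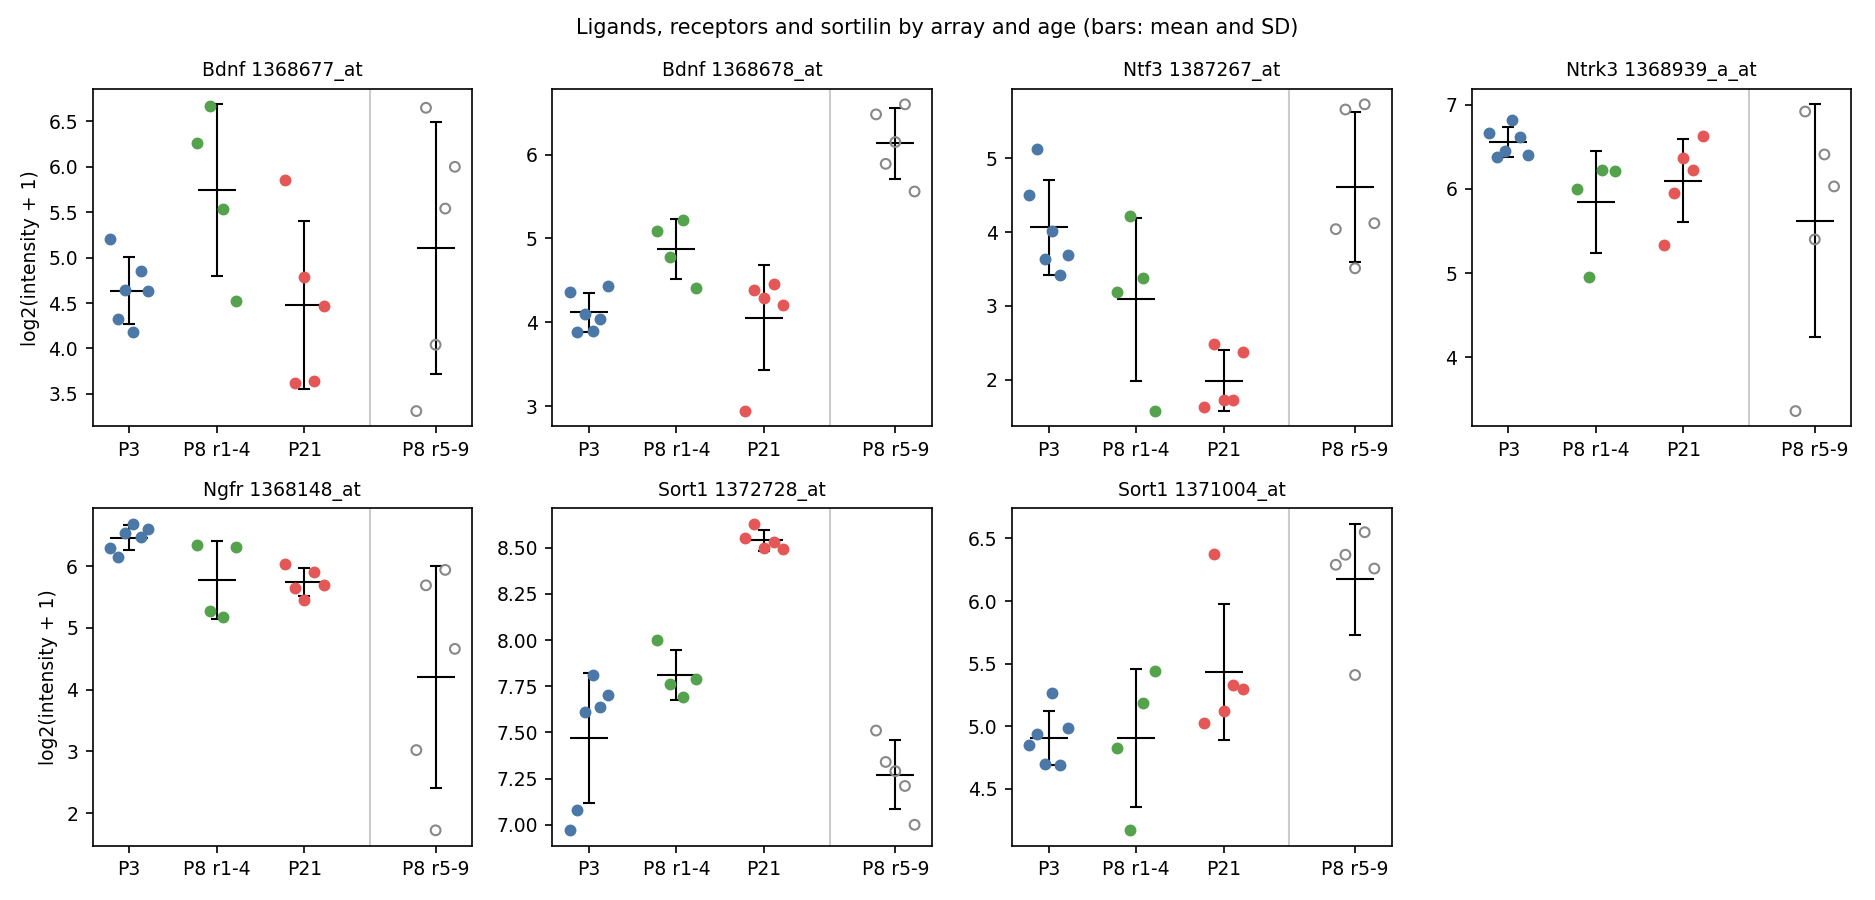
Log2 level (y axis, log2(intensity + 1)) of the Bdnf, Ntf3, Ntrk3, Ngfr and Sort1 probe sets by age (x axis), 1 point per array, with the mean and SD as bars. P8 replicates 5 to 9 are the open points on the right of each panel; the 5 P21 arrays of Sort1 1372728_at lie at 8.49 to 8.63, above all other arrays, and those of Ntf3 lie at 1.63 to 2.49.

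Ntrk2 has 5 probe sets, and they did not move together. The bright probe sets 1383135_at and 1397246_at fell with age, whereas 1368972_at was highest at P8. Which form of the TrkB transcript each of them reads was not analysed here, and levels of different probe sets are set beside each other only as a description. Probe set 1383135_at ran from 9.33 over a median of 9.82 to 9.99 at P3, was 8.88, 9.28, 8.83 and 9.83 at P8, and 8.41, 8.92, 9.03, 8.63 and 8.62 at P21. All P21 arrays lay below all P3 arrays, and of the P8 arrays replicate 4 alone lay within the P3 range. The mean was 8.72 ± 0.25 at P21 and 9.78 ± 0.24 at P3 (SD, n = 5 and 6), a fall of −1.06 ± 0.19 (SE; 0.481 of the P3 level; adjusted p = 0.000571, limma). The steps, −0.57 ± 0.21 for P8 vs P3 (adjusted p = 0.0728) and −0.48 ± 0.22 for P21 vs P8 (adjusted p = 0.143), were not called. With the log2 values of all 5 Ntrk2 probe sets averaged, the P21 vs P3 difference was −0.55 (adjusted p = 0.0145). The P8 vs P3 step was called without P8 replicate 4 (−0.78, adjusted p = 0.0151) and without P3 replicate 1 (−0.66, adjusted p = 0.0457). Without P8 replicate 3 its adjusted p was 0.188 (limma).

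Probe set 1397246_at had the larger estimate of the fall, a difference between probe sets that was not tested. It ran from 8.42 over a median of 8.77 to 9.10 at P3, was 7.71, 7.79, 6.93 and 8.76 at P8, and 7.40, 7.01, 7.58, 7.11 and 7.68 at P21. P8 replicate 4 had a P3-like level, the other P8 arrays lay below P3, and P21 did not overlap P3. The difference was −1.38 ± 0.25 for P21 vs P3 (SE; 0.385 of the P3 level; adjusted p = 0.000599, limma) and −0.94 ± 0.27 for P8 vs P3 (adjusted p = 0.0301), while that for P21 vs P8 was −0.44 ± 0.28 (adjusted p = 0.312). The P8 vs P3 call was lost when any 1 of 6 arrays was left out: P3 replicate 1 (−0.93, adjusted p = 0.0507), P3 replicate 4 (−0.86, 0.0627), P3 replicate 5 (−0.92, 0.0559), P8 replicate 1 (−0.91, 0.0605), P8 replicate 2 (−0.93, 0.0601) or P8 replicate 3 (−0.65, 0.0904). It was also lost with only P8 and P3 in the fit (adjusted p = 0.0587). On P8 replicates 5 to 9 the means of 1383135_at and 1397246_at were 8.77 ± 0.44 and 7.23 ± 0.75 (SD, n = 5), near the P21 means.

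Probe set 1368972_at moved the other way between P3 and P8. Its log2 level ran from 6.03 over a median of 6.27 to 7.20 at P3, was 6.96, 7.34, 7.54 and 7.13 at P8, and 7.33, 6.71, 6.90, 6.51 and 6.65 at P21. P3 replicate 1 lay within the P8 range and the other 5 P3 arrays lay below it. The mean was 7.24 ± 0.25 at P8 and 6.43 ± 0.45 at P3 (SD, n = 4 and 6), a rise of 0.82 ± 0.23 (SE; 1.76-fold; adjusted p = 0.0283, limma). The call was lost without P3 replicate 3 (0.76, adjusted p = 0.0553), P3 replicate 5 (0.74, 0.0614), P3 replicate 6 (0.75, 0.0561), P8 replicate 2 (0.78, 0.0648) or P8 replicate 3 (0.72, 0.0774), and over all 20 arrays the difference was 0.38 (adjusted p = 0.347). At P21 the mean was 6.82 ± 0.32 (SD, n = 5), which was 0.39 ± 0.22 above P3 (adjusted p = 0.174) and −0.43 ± 0.24 from P8 (adjusted p = 0.254). Without P3 replicate 1 the P21 vs P3 difference was 0.55 (adjusted p = 0.0349). Replicates 5 to 9 of P8 spread from 5.71 to 7.68.

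Within each array, the log2 level of 1368972_at minus that of 1383135_at changed with age. It was −3.35 ± 0.67 at P3 (SD, n = 6), −1.96 ± 0.58 at P8 (n = 4) and −1.91 ± 0.47 at P21 (n = 5). Against 1397246_at the same difference was −2.31 ± 0.49 at P3, −0.55 ± 0.92 at P8 and −0.54 ± 0.37 at P21. Between both falling probe sets the difference was 1.05 ± 0.36 at P3, 1.41 ± 0.37 at P8 and 1.37 ± 0.39 at P21 (1383135_at minus 1397246_at). These values show unequal change of the probe sets and are given as a description. The dim probe sets 1370652_at and 1370687_a_at stayed below log2 4 on all 15 arrays, at 0.49 to 3.56 and at 1.77 to 3.29, and were not tested. On P8 replicates 5 to 9 they lay at 3.00 to 5.38, with 3 arrays above log2 4, and at 2.85 to 3.46.

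**Figure D3:**
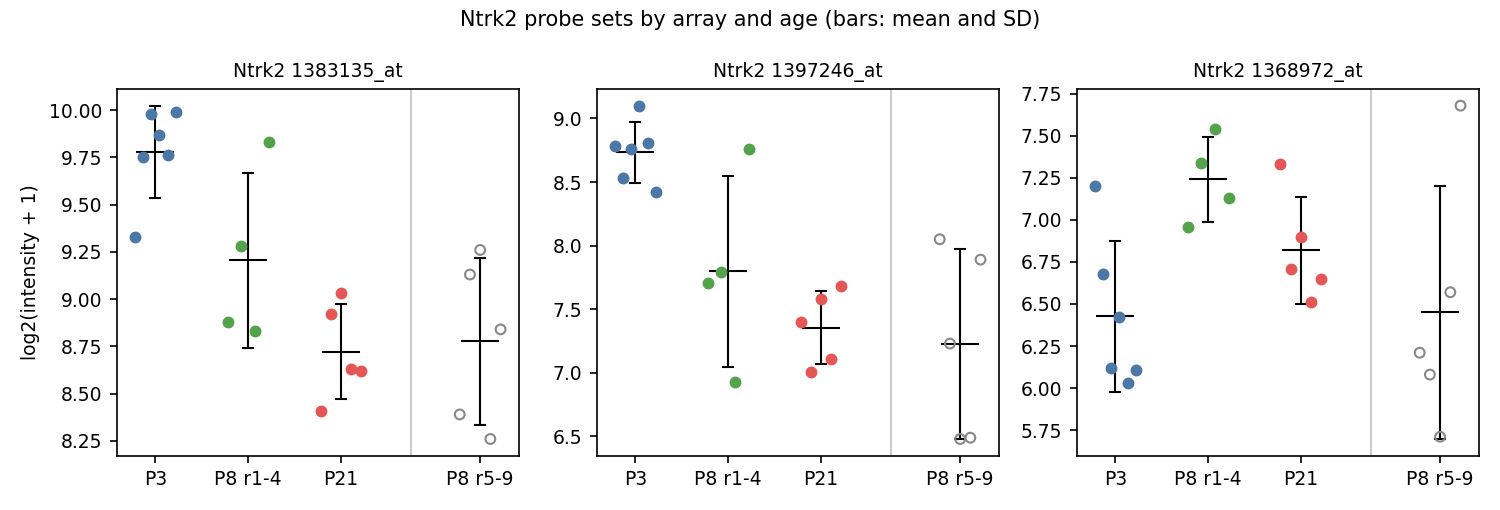
Log2 level (y axis, log2(intensity + 1)) of the 3 tested Ntrk2 probe sets by age (x axis), 1 point per array, with the mean and SD as bars and P8 replicates 5 to 9 as open points on the right. Probe sets 1383135_at and 1397246_at have P21 arrays that all lie below the P3 arrays, and 1368972_at has its highest mean, 7.24, at P8.

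Markers of cells that also make TrkB were set beside these falls. The mean log2 level of 8 astrocyte markers was 8.62 ± 0.16 at P21 and 8.79 ± 0.33 at P3 (SD, n = 5 and 6; adjusted p = 0.412, exact permutation test, two-sided, over 36 such tests), and their summed intensity was 5738 to 7100 at P21 and 4852 to 10080 at P3. At P8 the astrocyte mean was 8.36 ± 0.30 (SD, n = 4; adjusted p = 0.164 for P8 vs P3, exact permutation test). The oligodendrocyte precursor markers fell to a mean of 6.08 ± 0.43 at P21, against 7.03 ± 0.28 at P3 (adjusted p = 0.0343, exact permutation test). At P8 the precursor mean was 6.99 ± 0.19 (adjusted p = 0.887 for P8 vs P3, exact permutation test). Of these markers 5 were measured, and their summed intensity was 598.4 to 954.1 at P21 and 1782 to 2285 at P3. The GAPDH control probe sets for the 3′ end exceeded those for the 5′ end of RNA length, by a log2 difference of 3.99 ± 0.66 at P21 and 2.91 ± 0.27 at P3 (adjusted p = 0.0343, exact permutation test). For beta-actin this difference was 4.32 ± 0.69 at P21 and 4.70 ± 0.30 at P3 (adjusted p = 0.317, exact permutation test). Inhibitory neuron markers had a mean of 4.69 ± 0.41 at P21 and 5.68 ± 0.52 at P3 (adjusted p = 0.0343, exact permutation test), with a summed intensity of 292.5 to 784.3 at P21 and 753.6 to 1358 at P3. At P8 their mean was 4.98 ± 0.19 (adjusted p = 0.0489 for P8 vs P3, exact permutation test), with a summed intensity of 417.0 to 942.7. The mean of the 6 granule cell markers was 6.14 ± 0.34 at P8 and 6.74 ± 0.09 at P3 (adjusted p = 0.0343, exact permutation test), with a summed intensity of 971.8 to 1866 at P8 and 2002 to 2570 at P3. The part of these cell types and of RNA length in the Ntrk2 falls was not tested.

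Other marker lists were higher at P8 than at P3, as was Ntrk2 1368972_at. The means at P8 and P3 were 9.06 ± 0.63 and 7.53 ± 0.22 for the bushy cell and glutamatergic neuron markers, 7.59 ± 0.59 and 5.00 ± 0.48 for the oligodendrocyte markers, and 4.94 ± 0.27 and 4.30 ± 0.23 for the pericyte and fibroblast markers (SD, n = 4 and 6; adjusted p = 0.0343 for each, exact permutation test). The summed intensity of the pericyte and fibroblast markers was 256.3 to 523.2 at P8 and 136.4 to 240.0 at P3. Their part in the rise of 1368972_at was not tested.

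Ntrk3, the gene of the neurotrophin 3 receptor TrkC, was lower at P8 than at P3 on every array but was not called. Probe set 1368939_a_at ran from 6.38 over a median of 6.53 to 6.82 at P3, was 6.00, 4.95, 6.23 and 6.21 at P8, and 5.33, 5.95, 6.37, 6.22 and 6.63 at P21. The P8 and P3 groups did not overlap, which held for 14.0% of all tested probe sets, and P8 replicate 2 lay well below the other P8 arrays. The difference was −0.71 ± 0.27 for P8 vs P3 (SE; 95% interval −1.28 to −0.13; adjusted p = 0.0874, limma), −0.45 ± 0.25 for P21 vs P3 (adjusted p = 0.170) and 0.25 ± 0.28 for P21 vs P8 (adjusted p = 0.580). Without P8 replicate 2 the P8 vs P3 difference was −0.41 (adjusted p = 0.259) and that for P21 vs P8 was −0.04 (adjusted p = 0.927). P8 replicates 5 to 9 spread from 3.36 to 6.92.

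Ngfr encodes p75, the receptor that binds every neurotrophin. Its probe set 1368148_at ran from 6.15 over a median of 6.51 to 6.69 at P3, was 6.34, 5.27, 5.18 and 6.31 at P8, and 6.04, 5.64, 5.46, 5.91 and 5.70 at P21. The P8 arrays fell into a pair inside the P3 range and a pair below all P3 and P21 arrays, and all P21 arrays lay below all P3 arrays. The mean was 5.75 ± 0.23 at P21 and 6.46 ± 0.20 at P3 (SD, n = 5 and 6), a fall of −0.71 ± 0.22 (SE; 0.611 of the P3 level; adjusted p = 0.0187, limma). Leaving out each array in turn kept this call, with adjusted p between 0.00939 and 0.0499. The P8 vs P3 difference of −0.68 ± 0.23 (adjusted p = 0.0616) passed the threshold without P8 replicate 1 (−0.87, adjusted p = 0.0243) or P8 replicate 4 (−0.86, adjusted p = 0.0276), the pair inside the P3 range. It was −0.49 without P8 replicate 3 (adjusted p = 0.18) and −0.39 with limma's array weights (adjusted p = 0.212). The P21 vs P8 difference was −0.03 ± 0.24 (adjusted p = 0.956). The P21 vs P8 difference took the other sign without P8 replicate 1 (0.16), P8 replicate 4 (0.15) or P21 replicate 3 (0.05), and was 0.00 without P21 replicate 2.

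On P8 replicates 5 to 9 Ngfr ranged from 1.72 to 5.94, all below the P3 arrays. With these arrays in the fit the P21 vs P3 difference stayed at −0.71, with an SE of 0.62 and an adjusted p of 0.557 (limma). The added arrays are all of P8 and enter this comparison through the shared estimate of the spread, not through the P21 or P3 values. Schwann cells are a known source of p75: of their markers 4 were measured, with a mean log2 level of 5.84 ± 0.21 at P21 and 5.86 ± 0.32 at P3 (SD, n = 5 and 6; adjusted p = 0.952, exact permutation test) and a summed intensity of 421.2 to 724.1 at P21 and 310.4 to 496.4 at P3. The oligodendrocyte precursor and inhibitory neuron values and the GAPDH difference given for Ntrk2 moved with the Ngfr fall as well, and their part in it was not tested.

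Sort1 encodes sortilin, a sorting receptor of the Golgi and endosomes that binds precursors of neurotrophins and is a partner of p75. Its brighter probe set, 1372728_at, ran from 6.97 over a median of 7.62 to 7.81 at P3, was 8.00, 7.76, 7.69 and 7.79 at P8, and 8.55, 8.63, 8.50, 8.53 and 8.49 at P21. The P21 arrays lay close together and above every P8 and P3 array, while P8 and P3 overlapped. The mean was 7.47 ± 0.35 at P3 (SD, n = 6), 7.81 ± 0.13 at P8 (n = 4) and 8.54 ± 0.05 at P21 (n = 5). The rise was 1.07 ± 0.16 for P21 vs P3 (SE; 2.10-fold; adjusted p = 0.0001, limma) and 0.73 ± 0.18 for P21 vs P8 (1.66-fold; adjusted p = 0.0112), and 0.34 ± 0.17 for P8 vs P3 did not pass (adjusted p = 0.189). Leaving out each array in turn kept both calls, with adjusted p up to 0.000427 for P21 vs P3 and up to 0.0293 for P21 vs P8. The P21 vs P8 call was lost with limma's array weights (0.67, adjusted p = 0.0525).

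The dimmer Sort1 probe set, 1371004_at, was not called in any comparison. It ran from 4.69 over a median of 4.89 to 5.27 at P3, was 4.83, 4.17, 5.19 and 5.44 at P8, and 5.03, 6.38, 5.12, 5.33 and 5.30 at P21. The groups overlapped, and P21 replicate 2 lay far above the other P21 arrays. The difference was 0.53 ± 0.26 for P21 vs P3 (SE; 95% interval −0.02 to 1.07; adjusted p = 0.118) and 0.52 ± 0.28 for P21 vs P8 (adjusted p = 0.227, limma), and 0.00 ± 0.27 for P8 vs P3 (adjusted p = 0.999). Both probe sets thus had positive P21 vs P3 estimates, with the threshold passed by the brighter alone. P8 replicates 5 to 9 went apart in the 2 probe sets: 1372728_at lay at 7.00 to 7.51, below all 4 other P8 arrays, and 1371004_at at 5.41 to 6.55.

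Oligodendrocyte markers were also higher at P21 than at P3. The mean log2 level of the 11 measured markers was 8.57 ± 0.32 at P21 and 5.00 ± 0.48 at P3 (SD, n = 5 and 6; adjusted p = 0.0343, exact permutation test, two-sided), and their summed intensity was 7278 to 10830 at P21 and 819.6 to 2185 at P3. The bushy cell and glutamatergic neuron markers also rose, to a mean of 10.31 ± 0.20 at P21, against 7.53 ± 0.22 at P3 (adjusted p = 0.0343). The oligodendrocyte markers were already higher at P8 than at P3 (adjusted p = 0.0343, exact permutation test), a step in which Sort1 was not called. Between P21 and P8 the oligodendrocyte means were 8.57 ± 0.32 and 7.59 ± 0.59 (adjusted p = 0.0761). In the same comparison the bushy cell and glutamatergic neuron means were 10.31 ± 0.20 at P21 and 9.06 ± 0.63 at P8 (adjusted p = 0.0440, exact permutation test). The 6 endothelial cell markers had means of 6.05 ± 0.29 at P3, 5.87 ± 0.30 at P8 and 6.50 ± 0.14 at P21 (adjusted p = 0.0440 for P21 vs P8 and 0.0343 for P21 vs P3, exact permutation test), with a summed intensity of 378.7 to 777.1 at P3, 421.4 to 682.3 at P8 and 579.8 to 774.7 at P21. The GAPDH difference given for Ntrk2 was also larger at P21 than at P3. The part of these cell types and of RNA length in the Sort1 rise was not tested.

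The relatives of sortilin moved in both directions. Of 8 other family genes on the list, 6 were measured and 5 tested. Sorl1, a sorting receptor known for its handling of amyloid precursor protein, was 7.32 to 8.06 at P3 with a median of 7.74, 9.64, 9.82, 9.34 and 10.16 at P8, and 11.01, 10.81, 10.61, 10.65 and 10.31 at P21. No 2 of these groups overlapped. On P8 replicates 5 to 9 Sorl1 lay at 8.88 to 10.99, which reaches into the P21 range. It rose by 2.96 ± 0.19 for P21 vs P3 (SE; adjusted p = 4.14e-08, limma), by 0.94 ± 0.21 for P21 vs P8 (adjusted p = 0.00664) and by 2.02 ± 0.20 for P8 vs P3 (adjusted p = 4.88e-05). Over the 11834 genes tested by their brightest probe set, the calls upwards were 21.8%, 8.89% and 8.79% in these comparisons, and the calls downwards 19.8%, 9.46% and 7.44%. Sorl1 was also the family gene called higher in each comparison over all 20 arrays.

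Sorcs2, a receptor that binds the BDNF precursor with p75, and Sorcs3, a receptor of postsynaptic sites, fell late. Sorcs3 was 5.94 to 6.48 at P3 with a median of 6.38, 6.26, 7.13, 6.90 and 6.60 at P8, and 4.74, 4.06, 4.02, 4.80 and 4.78 at P21. Its P21 arrays lay below all others. The fall was −2.24 ± 0.22 for P21 vs P8 (adjusted p = 1.56e-05, limma) and −1.85 ± 0.20 for P21 vs P3 (adjusted p = 4.70e-06). With all 20 arrays in the fit it was not called, at −0.88 (adjusted p = 0.278) and −1.85 (adjusted p = 0.0730), and P8 replicates 5 to 9 ranged from 2.00 to 5.44. Sorcs2 was 6.86 to 7.20 at P3 with a median of 6.97, 7.00, 7.51, 7.05 and 6.98 at P8, and 6.22, 6.09, 5.86, 6.52 and 5.98 at P21. Its P21 arrays did not overlap the other ages, with differences of −1.0 ± 0.16 for P21 vs P8 (adjusted p = 0.00084) and −0.86 ± 0.15 for P21 vs P3 (adjusted p = 0.000335). Nradd, a relative of p75, was the other family gene called, with a difference of −0.78 ± 0.24 for P21 vs P3 (adjusted p = 0.0174). Sorcs1 was not called, with means of 6.27 at P3, 6.03 at P8 and 5.31 at P21. Ntf4, the gene of neurotrophin 4, was dim and not tested, with a log2 level of 1.14 to 1.85 at P3, 1.00 to 1.68 at P8 and 1.32 to 3.77 at P21.

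**Figure D4:**
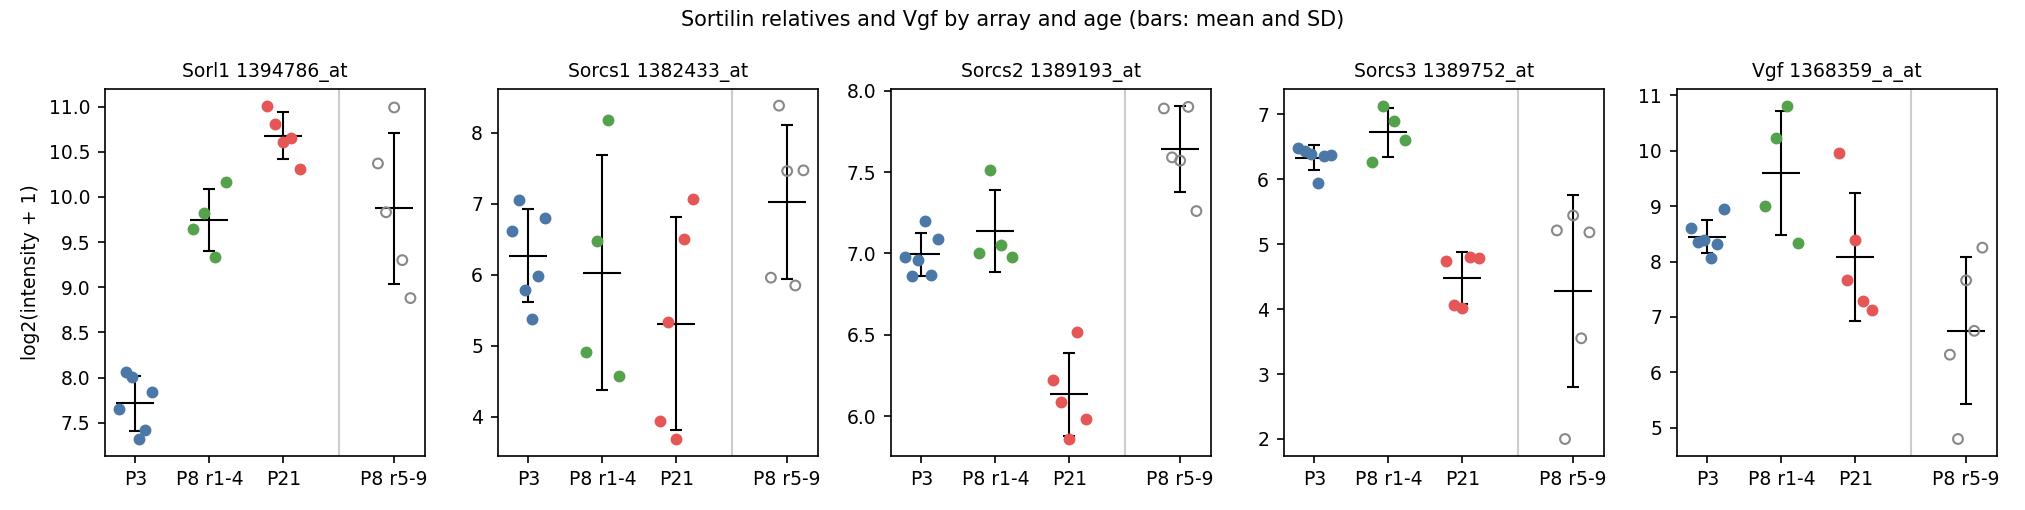
Log2 level (y axis, log2(intensity + 1)) of 4 relatives of Sort1 and of Vgf by age (x axis), 1 point per array, with the mean and SD as bars and P8 replicates 5 to 9 as open points on the right. Sorl1 lies at 7.32 to 8.06 at P3 and at 10.31 to 11.01 at P21, and Sorcs2 and Sorcs3 have P21 arrays below all P3 and P8 arrays on the left of the line.

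The calls among genes for processing and release of neurotrophin precursors were mostly rises, those of Chga and Pcsk2 among them. Of 12 tested (15 measured of 17 listed), 4 rose, 0 fell and 8 were not called for P21 vs P3, and 3 rose and 1 fell for P8 vs P3. For P21 vs P8, limma called 0, against 8.89% higher and 9.46% lower over all genes. The rises were 33.3% of the tested genes for P21 vs P3 and 25.0% for P8 vs P3, against 21.8% and 8.79% over all genes. The falls were 0% and 8.33%, against 19.8% and 7.44%. On so few genes these shares are a description only. The list's median difference was 0.08, 0.27 and 0.17 for P21 vs P3, P8 vs P3 and P21 vs P8, against 0.04, 0.01 and 0.04 over all genes. Chga, a granin of dense-core vesicles, had a mean of 9.28 at P21 and 7.51 at P3 and rose by 1.76 ± 0.19 (adjusted p = 5.72e-06, limma), and by 1.40 ± 0.21 for P8 vs P3 (adjusted p = 0.000704). In the 20-array fit Chga lost both calls, and its P8 vs P3 difference was −0.52. Pcsk2, a proprotein convertase of dense-core vesicles, rose by 1.41 ± 0.27 for P21 vs P3 (adjusted p = 0.000758) and by 1.14 ± 0.29 for P8 vs P3 (adjusted p = 0.0159; 0.0509 without P8 replicate 3). The convertase genes Pcsk5 (0.86 ± 0.20 for P8 vs P3, adjusted p = 0.00984) and Pcsk6 (0.86 ± 0.23 for P21 vs P3, adjusted p = 0.00785) were also called. Chosen after their values were seen, the remaining called genes of the list were Cadps2, of dense-core vesicle release (1.70 for P21 vs P3), and Plat, tissue plasminogen activator (−1.13 for P8 vs P3). With all 20 arrays the rises numbered 1 for P21 vs P3 and 0 for P8 vs P3.

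The adaptors and kinases below the Trk receptors were called in both directions. Of 39 tested (42 measured of 53 listed), 5 rose and 10 fell for P21 vs P3, 2 rose and 5 fell for P21 vs P8, and 2 rose and 5 fell for P8 vs P3. In the order P21 vs P3, P21 vs P8 and P8 vs P3, the rises were 12.8%, 5.13% and 5.13% of the tested genes, against 21.8%, 8.89% and 8.79% over all genes. The falls were 25.6%, 12.8% and 12.8%, against 19.8%, 9.46% and 7.44%. The medians were −0.11, 0.03 and −0.22. Mapk7, the kinase ERK5, had means of 5.18 at P3, 3.74 at P8 and 3.37 at P21, and fell by 1.81 for P21 vs P3 (SE 0.15; adjusted p = 4.92e-07, limma) and fell by 1.44 for P8 vs P3 (SE 0.16; adjusted p = 0.000106). Both later means lay below the filter level of log2 4, so that Mapk7 could pass the filter through the P3 arrays, where it was high. The small GTPase gene Rap1b fell in each comparison by its brightest probe set, with differences of −1.51 ± 0.17 (P21 vs P3), −0.67 ± 0.19 (P21 vs P8) and −0.83 ± 0.18 (P8 vs P3; adjusted p = 7.12e-06, 0.0233 and 0.00712). The mean over all its probe sets was not called for P21 vs P8 (0.02) or for P8 vs P3 (−0.64). Its P21 vs P8 call was lost without P8 replicate 3 (adjusted p = 0.0633), P21 replicate 1 (0.0524) or P21 replicate 3 (0.0571).

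Nedd4, a ubiquitin ligase, fell by 1.47 for P21 vs P3 (SE 0.18; adjusted p = 1.35e-05, limma) and fell by 1.10 for P21 vs P8 (SE 0.20; adjusted p = 0.00151), and over all 20 arrays neither call held and the P21 vs P8 difference was 1.52. Lrig1, a membrane protein that restrains receptor tyrosine kinases, had a mean of 8.41 at P8 and 9.82 at P3 (−1.41 ± 0.28; adjusted p = 0.00465). The adaptor gene Sh2b2 had a mean of 3.90 at P21 and 4.99 at P8 (−1.09 ± 0.22; adjusted p = 0.00314). The other genes behind the counts of 5 or fewer on this list were named after their values were seen. For P21 vs P3 the rises were those of the adaptor genes Shc2 (0.79), Frs3 (1.41) and Crk (0.36) and of the kinase genes Map2k1 (0.57) and Pik3ca (0.51). For P21 vs P8 the kinase gene Rps6ka2 (0.76) and Lrig1 (1.05) rose, and Nras (−0.44) and the phosphatase gene Ptprs (−0.64) were called lower. For P8 vs P3 Shc2 (0.77) and Frs3 (0.99) rose, and Creb1 (−1.66), the gene of the CRE-binding protein, and the phosphatase gene Ptprf (−0.50) were called lower. Over all 20 arrays the list gave 0 rises and 5 falls (P21 vs P3), 2 rises and 3 falls (P21 vs P8), and 2 rises and 7 falls (P8 vs P3), and Mapk7 was not called for P8 vs P3 (−0.32, adjusted p = 0.576).

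Partners of p75 with calls included Bex1, Traf4 and Psenen. Of 16 tested (18 measured of 21 listed), 1 rose and 6 fell for P21 vs P3, 0 rose and 4 fell for P21 vs P8, and 1 rose and 3 fell for P8 vs P3, with medians of −0.34, −0.27 and −0.11. The falls were 37.5%, 25.0% and 18.8% of the tested genes, against 19.8%, 9.46% and 7.44% over all genes, and the difference was not tested. Bex1, an adaptor of the p75 intracellular domain, had means of 10.01 at P3, 9.97 at P8 and 8.51 at P21, and fell by 1.51 for P21 vs P3 (SE 0.26; adjusted p = 0.000303, limma) and fell by 1.47 for P21 vs P8 (SE 0.28; adjusted p = 0.0027). Traf4, of the TRAF adaptor family, fell by 1.20 for P21 vs P3 (SE 0.17; adjusted p = 7.39e-05) and fell by 0.74 for P21 vs P8 (SE 0.19; adjusted p = 0.0157). Psenen, a subunit of the gamma-secretase that cuts p75, rose by 0.75 ± 0.13 for P21 vs P3 (adjusted p = 0.000292) and by 0.75 ± 0.14 for P8 vs P3 (adjusted p = 0.00261), and was not called in either over all 20 arrays.

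The Nogo receptor gene Rtn4r fell by 0.88 for P21 vs P8 (SE 0.26; adjusted p = 0.0296, limma), a call lost without P8 replicate 3 (adjusted p = 0.0921), P8 replicate 4 (0.0621), P21 replicate 1 (0.0504) or P21 replicate 2 (0.0506). With all its probe sets averaged the Rtn4r difference was −0.30 (adjusted p = 0.473). Of the kinases, Mapk8 (JNK1) fell by 0.53 for P8 vs P3 by its brightest probe set (SE 0.14; adjusted p = 0.0185; −0.20 and adjusted p = 0.502 with all its probe sets averaged) and Irak1 fell by 0.69 (SE 0.19; adjusted p = 0.0255). The Irak1 call was lost without P3 replicate 5 (adjusted p = 0.0550) or P8 replicate 3 (0.0771), and the mean over all probe sets of Irak1 differed by 0.52. Chosen after their values were seen, the remaining called genes were the Nogo receptor partner Lingo1 (−0.85 for P8 vs P3) and Bex3 (−0.42 for P21 vs P8). With all 20 arrays the p75 list gave 0 rises and 4 falls (P21 vs P3), 0 rises and 4 falls (P21 vs P8), and 0 rises and 2 falls (P8 vs P3).

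Genes known to respond to Trk and ERK signalling moved in both directions. Of 28 tested (30 measured of 34 listed), 4 rose and 6 fell for P21 vs P3, 4 rose and 2 fell for P21 vs P8, and 1 rose and 6 fell for P8 vs P3, with medians of −0.04, 0.06 and −0.36. The rises were 14.3%, 14.3% and 3.57% of the tested genes, against 21.8%, 8.89% and 8.79% over all genes, and the falls 21.4%, 7.14% and 21.4%, against 19.8%, 9.46% and 7.44%. Fos, an immediate early transcription factor, had a mean of 7.35 at P8 and 9.47 at P3 (−2.12 ± 0.42; adjusted p = 0.0046, limma). Dusp1, a phosphatase of MAP kinases, rose by 2.61 ± 0.25 for P21 vs P8 (adjusted p = 1.39e-05) and by 1.80 ± 0.23 for P21 vs P3 (adjusted p = 2.29e-05). Homer1, a scaffold of postsynaptic sites, rose by 2.22 ± 0.55 for P21 vs P8 (adjusted p = 0.0125; 0.0790 over all 20 arrays).

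Klf10 fell by 3.90 for P21 vs P3 (SE 0.49; adjusted p = 1.86e-05, limma) and fell by 2.29 for P21 vs P8 (SE 0.54; adjusted p = 0.0092). Mcl1, an antiapoptotic protein of the BCL2 family, fell by 2.45 for P21 vs P3 (SE 0.32; adjusted p = 3e-05) and fell by 1.52 for P8 vs P3 (SE 0.34; adjusted p = 0.00886). The orphan receptor gene Nr4a1 rose by 0.59 ± 0.15 for P8 vs P3 (adjusted p = 0.0175; 0.0517 without P8 replicate 2). Chosen after their values were seen, the remaining calls of 5 or fewer were those of Nr4a1 (0.65), Homer1 (1.70) and Etv5 (0.52) for P21 vs P3, and of Egr4 (1.42), Fos (1.43) and Etv4 (−2.16) for P21 vs P8. Over all 20 arrays the list gave 1 rise and 4 falls (P21 vs P3), 1 rise and 4 falls (P21 vs P8), and 4 rises and 5 falls (P8 vs P3).

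Among receptors and ligands of other trophic factors, 18 were tested (23 measured of 25 listed), of which 1 rose and 3 fell for P21 vs P3, 2 rose and 2 fell for P21 vs P8, and 1 rose and 3 fell for P8 vs P3. The rises were 5.56%, 11.1% and 5.56% of the tested genes, against 21.8%, 8.89% and 8.79% over all genes. The falls were 16.7%, 11.1% and 16.7%, against 19.8%, 9.46% and 7.44%. The medians were 0.05, 0.12 and −0.04. Ret, the receptor kinase of the GDNF family, had means of 7.76 at P3, 6.64 at P8 and 5.80 at P21 by its brightest probe set, and fell by 1.97 for P21 vs P3 (SE 0.26; adjusted p = 3.61e-05, limma) and fell by 1.12 for P8 vs P3 (SE 0.28; adjusted p = 0.0154). With all its probe sets averaged the P8 vs P3 difference was 0.06 (adjusted p = 0.905). Kitlg, the ligand of the receptor Kit, fell by 2.65 for P21 vs P3 (SE 0.49; adjusted p = 0.000621) and fell by 1.92 for P8 vs P3 (SE 0.52; adjusted p = 0.0228), the P8 vs P3 call being lost without P8 replicate 2 (adjusted p = 0.0670) or P8 replicate 3 (0.0669).

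Cntf, ciliary neurotrophic factor, was lower at P8 than at both other ages, with means of 6.15 at P3, 4.24 at P8 and 6.34 at P21 (P8 vs P3 adjusted p = 0.0084, P21 vs P8 adjusted p = 0.00469, limma). Igf1 was 4.67 at P21 and 7.30 at P8 (−2.62 ± 0.56; adjusted p = 0.00488). Both Cntf calls and that of Igf1 were lost over all 20 arrays. Met, the receptor of hepatocyte growth factor, rose by 0.91 ± 0.23 for P21 vs P3 (adjusted p = 0.00575). Pspn, the ligand persephin, rose by 1.13 ± 0.34 for P21 vs P8 (adjusted p = 0.0312), lost without P8 replicate 1 (0.0874), P8 replicate 3 (0.0927) or P21 replicate 1 (0.0524), 3 (0.0612), 4 (0.0672) or 5 (0.0576), and −0.60 over all 20 arrays. Chosen after their values were seen, the remaining calls were those of Met (0.82 for P8 vs P3), Gfra1, a co-receptor of the GDNF family (−0.86 for P21 vs P8), and Igf1 (−1.86 for P21 vs P3). With all 20 arrays this list gave 0 rises and 2 falls (P21 vs P3), 0 rises and 4 falls (P21 vs P8), and 5 rises and 1 fall (P8 vs P3).

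The calls of list genes named after their values were seen, Nradd included, numbered 27 in 25 genes, and 7 of the 27 held over all 20 arrays. Leaving out 1 array cost between 3 of them (P3 replicate 3) and 14 (P8 replicate 2), and 12 without P8 replicate 3. The 9 calls that held whichever array was left out were all for P21 vs P3, those of Cadps2, Etv5, Frs3, Homer1, Igf1, Nr4a1, Nradd, Pik3ca and Shc2. Those of Frs3 for P8 vs P3 (−0.25) and of Bex3 (1.54) and Nras (0.02) for P21 vs P8 changed sign over all 20 arrays. With the mean over all probe sets of the gene, the P21 vs P3 differences of Crk (−0.36) and Etv5 (−0.64) changed sign as well. With this mean the calls of Nedd4 (−0.50), Ptprs (−0.20), Nras (−0.24), Gfra1 (−0.18), Bex3 (−0.35), Fos (0.80) and Egr4 (1.23) for P21 vs P8, of Mcl1 (−1.24) and Lingo1 (−0.32) for P8 vs P3, and of Homer1 (0.92) for P21 vs P3 were lost. Among the list genes with the smallest p values, those with calls also lost over all 20 arrays were Pcsk2, Pcsk5, Irak1, Nr4a1 and Ret for P8 vs P3, Pcsk6 and Met for P21 vs P3, and Rap1b for P21 vs P8. With only the ages compared in the fit, the P21 vs P8 calls of Homer1, Klf10, Pspn, Rap1b, Rtn4r and Traf4 were lost, and with array weights those of Homer1, Rap1b and Rtn4r and the P8 vs P3 call of Kitlg.

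The genes with the most similar pattern over the 15 arrays were found for the brightest tested probe set of each member among 11834 genes, by the mean absolute difference of log2 values after each gene's own mean was subtracted. For Bdnf 1368677_at they were Vgf (0.427), Pwwp3b (0.460) and Tmem91 (0.472), where the member's own mean absolute deviation was 0.683. Vgf, a gene of a secreted neuropeptide precursor known to be induced by neurotrophins, was 8.06 to 8.94 at P3 with a median of 8.38, 9.01, 10.23, 10.81 and 8.34 at P8, and 9.95, 7.67, 8.39, 7.29 and 7.12 at P21. As for Bdnf, P8 replicate 4 lay among the P3 arrays and P21 replicate 1 among the P8 arrays. Vgf was not called for P8 vs P3 or for P21 vs P8. P8 replicates 5 to 9 of Vgf lay at 4.80 to 8.25, all but the highest below the P3 arrays, unlike Bdnf.

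For Sort1 1372728_at the most similar genes were Snph (0.117), the gene of syntaphilin, which anchors mitochondria in axons, Arl2 (0.130) and Actr1b (0.134, a part of the dynactin complex), beside its own deviation of 0.427. Snph had means of 7.41 at P3, 7.80 at P8 and 8.54 at P21. For Ntrk2 1383135_at they were Aldh6a1 (0.167), Vasp (0.184) and Septin2 (0.191), beside 0.479. For Ngfr they were Gosr2 (0.159), Zmiz1 (0.173) and Gpx1 (0.175), beside 0.411, and for Ntrk3 Sec63 (0.190), Htatsf1 (0.194) and Eif3m (0.196), beside 0.351. These likenesses follow the ages that the arrays share and are a description over 15 arrays. With a pseudocount of 16, of the 3 genes named 1 remained for Bdnf, 1 for Ngfr, 2 for Ntrk2, 2 for Ntrk3 and 3 for Sort1. After quantile normalization 3 remained for Bdnf, 1 for Ngfr, and 2 each for Ntrk2, Ntrk3 and Sort1.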

How the data were processed

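Linear intensities were deposited by the authors, 1 value per probe set and array for 20 arrays, and per the submitters' processing notes GCRMA was used, with no version or role given. GCRMA gives log2 values, and the step that made the linear scale was not stated in the labels or file. The mean intensity of each array without its lowest and highest 2% was 100.02 to 100.03. Of 31099 probe sets 57 were controls, 20832 had 1 annotated gene (6 of them controls, left out), 436 had several and 9831 were unnamed here. Current symbols came from RefSeq's rat gene table (GRCr8), matched by Entrez identifier for 20764 and by accession for 2, and 66 were kept as annotated.

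Values were analysed as log2(intensity + 1), which understates changes of dim genes. Probe sets above log2 4 on at least 5 of 15 arrays were tested with limma (version 3.58.1, R version 4.3.3; lmFit then eBayes, all 3 ages fitted together, P8 replicates 5 to 9 left out), with Benjamini-Hochberg adjustment over 15647 probe sets and calls under 0.05. Adjusted p values of genes are all limma's. A gene can pass the filter through the age where it is high. Of the named list genes, Creb1, Egr4, Etv4, Klf10, Mapk7, Met, Pcsk2, Pspn and Sh2b2 had group means below log2 4. Marker means and control differences were compared between ages by exact permutation tests (SciPy 1.17.1), adjusted over 36 tests. The members, the 6 pathway lists (134 of 158 entries measured), the marker lists and the split of the P8 arrays were chosen with earlier results of these data known. All member probe sets are named, and from each list the up to 3 called genes with the smallest p per comparison, by the brightest probe set. Further called genes behind list counts of 5 or fewer were named after their values were seen. The script was tested on simulated data. Precision is limited by the number of arrays, and litters or dates are not in the labels. Alternatives were all 20 arrays, only the ages compared, a pseudocount of 16, no filter or a filter at log2 6, quantile normalization, subtraction of array medians, other variance and weight settings, other treatments of several probe sets, the replicate number as a block, and each array left out. List counts over all 20 arrays were added after seeing the data. In the fit over all 20 arrays the P21 vs P3 differences stay the same, because P8 replicates 5 to 9 are of neither age. P21 vs P3 calls change there through the shared spread, the filter and the adjustment.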

Additional observations from a re-analysis of the deposited data

Results flagged for a closer look

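In groups of 4 to 6 arrays, 5 of 48 groups of member values held an array whose gap to its neighbour was beyond Dixon's critical value, where chance flags about 5%. Bdnf 1368678_at was 2.94 on P21 replicate 1, where the nearest other P21 array was at 4.20. On the same array Bdnf 1368677_at was the highest of its age, so that the Bdnf probe sets differed there in direction. Ntrk2 1383135_at was 9.33 on P3 replicate 1, with the nearest P3 array at 9.75, and the dim Ntrk2 1370652_at was 1.07 on P3 replicate 4, with the nearest at 2.23. Sort1 1371004_at was 6.38 on P21 replicate 2, with the nearest at 5.33, and without this array its P21 vs P3 difference was 0.29 (adjusted p = 0.322, limma). In P8 replicates 5 to 9 the same probe set was 5.41 on replicate 7, with the nearest at 6.26. No cause was tested for any of these arrays.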

How the results depend on the processing

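Counts of member probe sets called moved with the settings. For P8 vs P3, 2 were called, against 4 over all 20 arrays, 4 with a filter at log2 6, 4 after quantile normalization, 0 with the brightest probe set per gene, 1 with the mean over probe sets and 0 to 6 with an array left out. For P21 vs P8, 1 was called, against 3 over all 20 arrays, 2 after quantile normalization, 2 with the mean over probe sets, 0 with array weights and 1 to 3 with an array left out. For P21 vs P3, 4 were called, and 4 to 5 with an array left out. Over all probe sets the calls were 2435 for P8 vs P3 (4486 over all 20 arrays, 1806 to 2493 with an array left out), 2619 for P21 vs P8 (1349 with only the 2 ages in the fit, 2076 to 2805 with an array left out) and 6114 for P21 vs P3 (2184 over all 20 arrays, 5477 to 6682 with an array left out). Same-numbered replicates did not deviate together (13 pairs, r −0.0603 to 0.0776). With the replicate block 1306 probe sets were called for P8 vs P3, 0 members were called for P8 vs P3, likewise 0 for P21 vs P8, and Bdnf 1368678_at (0.00, P21 vs P3) and Sort1 1371004_at (−0.02, P8 vs P3) changed sign. Other changes of sign over all 20 arrays were Ntrk2 1368972_at (0.01, P21 vs P8), Ngfr (0.85, P21 vs P8), Sort1 1371004_at (−0.18, P21 vs P8), Chga (−0.52, P8 vs P3), Frs3 (−0.25, P8 vs P3), Nedd4 (1.52), Bex3 (1.54), Nras (0.02) and Pspn (−0.60), the last 4 for P21 vs P8. With array weights Bdnf 1368678_at was 0.08 (P21 vs P3), and with the mean over probe sets Irak1 was 0.52 and Ret 0.06 (P8 vs P3), Rap1b 0.02 (P21 vs P8), and Crk −0.36 and Etv5 −0.64 (P21 vs P3). With an array left out, differences crossed 0 for P21 vs P3 in Bdnf 1368677_at (−0.51 to 0.05) and 1368678_at (−0.16 to 0.22), for P21 vs P8 in Ntrk3 (−0.04 to 0.45) and Ngfr (−0.23 to 0.16), and for P8 vs P3 in Sort1 1371004_at (−0.18 to 0.25). For P21 vs P3 the fit over all 20 arrays left the differences as they were and changed the shared spread. The causes of the other changes were not tested. Probe sets near log2 4 (Bdnf, Ntf3) are limited by their low signal.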
